A study of Mus musculus with 45 samples.

Results

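The comparison is between forelimb buds kept for 48 h and for 24 h in organ culture with 50 µM bisphenol A (BPA), a monomer of plastics that binds estrogen receptors. It uses 10 of the 45 RNA sequencing libraries of the series, 5 of each time, chosen by the dose and hours in their titles and not by any measured value. The limb buds were taken from CD1 mouse embryos, an outbred stock, at gestation day 13. The forelimbs of each embryo were pooled, and limbs of both sexes shared a culture bottle. Beside them stand 10 libraries of limb buds kept for 24 or 48 h with the vehicle dimethyl sulfoxide, 5 of each time. For levels alone, libraries of 3 h with 50 µM BPA or vehicle and of 24 and 48 h with 10 µM BPA are given. An excised limb bud has no circulation and grows apart from the rest of the embryo, so no cells reach it by the blood. Nothing in the labels ties a library to a litter or a day of culture. The p-values therefore weigh differences only against the scatter among these libraries, some of which can be technical.

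The series is about endochondral ossification, by its title. In that process mesenchyme condenses to cartilage, chondrocytes secrete a matrix of type II collagen and the proteoglycan aggrecan, and then stop dividing, enlarge and switch to type X collagen. The enlarged, hypertrophic cells mineralise their matrix, and osteoblasts and vessels replace it with bone. Signals of the hedgehog, BMP, WNT, FGF and retinoic acid families set the pace of these steps, and limb patterning genes are drawn on mostly before them.

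Of 16706 genes tested with 50 µM, 1908 (11.4%) were called at an adjusted p under 0.05 between 24 and 48 h, in edgeR's quasi-likelihood test. Of these, 1195 (7.15%) rose and 713 (4.27%) fell, with 183 higher and 62 lower by more than 2-fold. The 5 libraries of 24 h and the 5 of 48 h did not overlap in 1692 genes (10.1%). Over all genes tested the median log2 fold change was -0.01, the value beside which the medians of gene lists are read below. The libraries held 18.32 to 24.53 M counts in genes, where M is 1e6. The first principal component took 32.4% of the variance and placed the 24 h libraries between -21.56 and -15.56 and the 48 h libraries between 12.62 and 26.55, with 48 h replicate 2 farthest out. Without that library 1360 genes were called, and without 24 h replicate 1, 2230. In the 20 libraries that include vehicle, 1822 of 17852 genes (10.2%) were called between the same hours without BPA, 1149 (6.44%) higher and 673 (3.77%) lower. That fit called 2014 genes with 50 µM. Vehicle counts of gene lists below come from it, and those with 50 µM, unless said otherwise, from the fit of 10 libraries. The fits estimate scatter from different libraries, so their counts are not strictly alike.

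**Figure D1:**
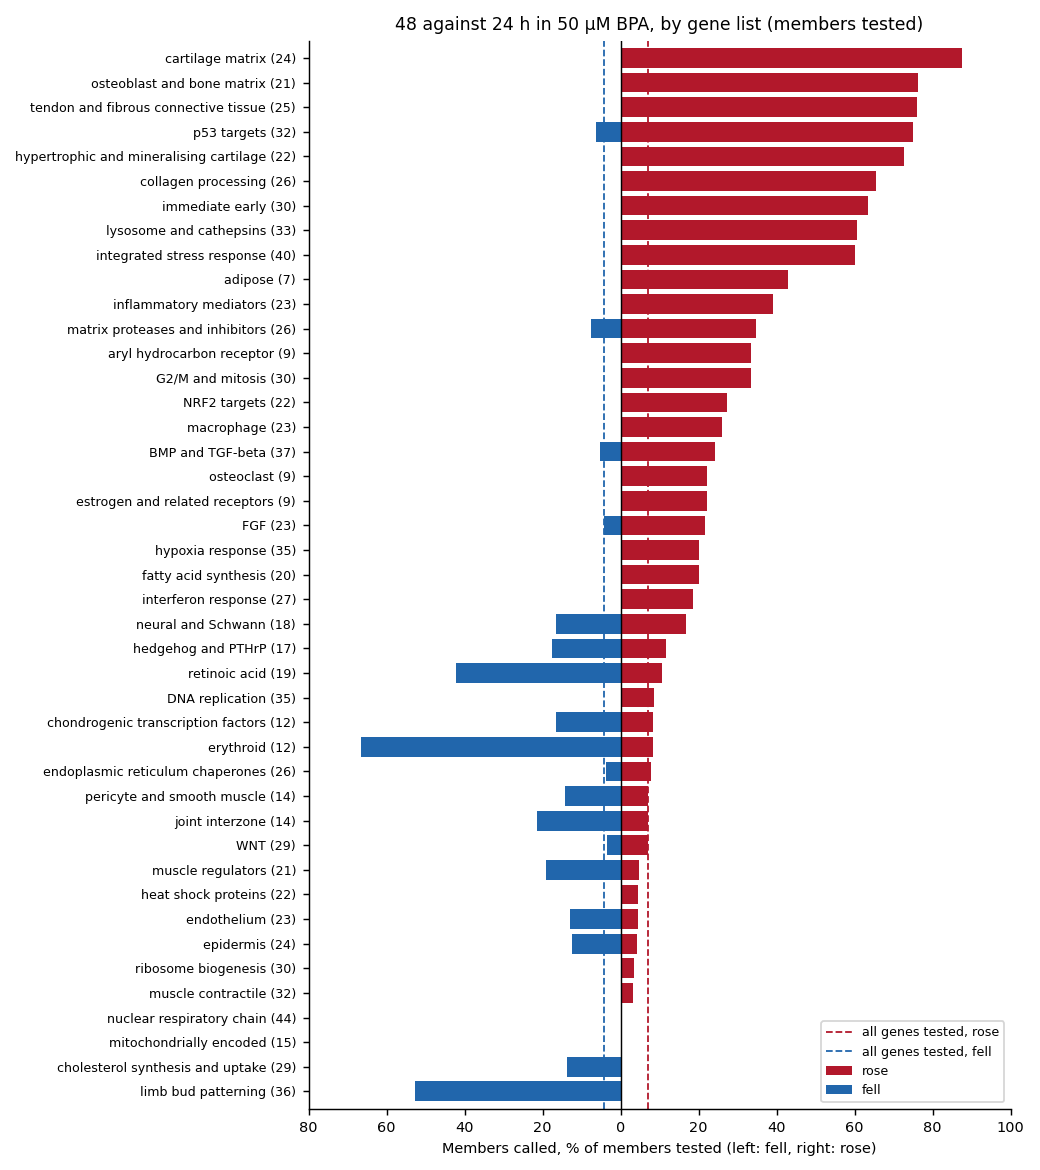
Share of each gene list called between 24 and 48 h in 50 µM BPA, in percent of the members tested (number in brackets), with members that rose to the right and members that fell to the left. Dashed lines give the shares over all genes tested, 7.15% up and 4.27% down; cartilage matrix has 21 of 24 members up and limb bud patterning 19 of 36 down.

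Cartilage matrix genes rose together. Of 24 members tested, 21 rose and none fell, with a median log2 fold change of 0.79. Col2a1, which encodes the main collagen of cartilage, lay at 6794, 7151, 6060, 6846 and 6603 CPM (counts of the gene per 1e6 counts of the library, after scaling) in replicates 1 to 5 of 24 h and at 11129, 14190, 11395, 11162 and 11067 CPM in those of 48 h. Every 48 h library was above every 24 h library, and the rise was 1.76-fold (log2 0.81 ± 0.08 SE, adjusted p = 2.58e-06). Acan, the gene of aggrecan, rose 1.92-fold, from 468 ± 34.2 to 904 ± 124 CPM (mean ± SD, n = 5). Comp, a matrix protein that bridges collagens, lay between 115 and 148 CPM at 24 h and between 331 and 427 CPM at 48 h, a 2.87-fold rise. Hapln1, the link protein that holds aggrecan on hyaluronan, rose 1.84-fold, and Cnmd, which encodes chondromodulin, 1.95-fold. Most of the transcription factors that direct cartilage formation did not pass the test, though the share called was above the 11.4% over all genes. Of 12 tested, 1 rose and 2 fell, and Sox9, the regulator of early cartilage, stood at 479 ± 29.4 CPM at 24 h and 448 ± 18.8 CPM at 48 h, a log2 difference of -0.10 ± 0.06 (adjusted p = 0.311). The 2 that fell, Zfp219 and Creb5, had log2 fold changes of -0.37 ± 0.08 and -0.29 ± 0.07. Foxa2, a factor of hypertrophic cartilage, rose 3.40-fold from low counts, 0.647 ± 0.274 to 2.22 ± 1.12 CPM, with the groups overlapping. In vehicle 21 of 24 cartilage matrix genes rose between the same hours and none fell, with a median of 0.63.

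Genes of hypertrophic and mineralising cartilage rose as well. In that list 16 of 22 members rose and none fell, with a median of 0.78 (in vehicle 11 of 22 rose and none fell, median 0.65). Col10a1 (chr10:34389981-34397085, mm10), the collagen of hypertrophic cartilage, lay at 13.0, 22.3, 17.5, 12.4 and 11.2 CPM at 24 h and at 83.2, 309, 117, 119 and 84.3 CPM at 48 h. Its lowest 48 h library was above its highest 24 h library, replicate 2 of 48 h stood apart from the other 4, and the rise was 9.27-fold (log2 3.21 ± 0.32, adjusted p = 4.30e-06). At 3 h with 50 µM the mean had been 4.55 CPM. Ibsp, the gene of bone sialoprotein, which binds mineral, rose 6.34-fold, from 54.3, 58.5, 80.6, 47.2 and 36 CPM to 145, 517, 325, 309.5 and 465 CPM. The groups did not overlap, though replicate 1 of 48 h reached less than the other 4. Alpl, the phosphatase that frees phosphate for mineral, rose 2.59-fold, from 26.9 ± 1.98 to 70.2 ± 13.8 CPM. Slc13a5, a citrate transporter, rose 3.46-fold, Enpp1, which makes the mineral inhibitor pyrophosphate, 1.86-fold, and Panx3, a channel of prehypertrophic cells, 1.79-fold. Ihh, the signal of prehypertrophic chondrocytes, was at 59.4 ± 10.4 and 72.4 ± 4.55 CPM and did not pass the test (adjusted p = 0.0790). Mmp13, the collagenase that opens hypertrophic cartilage, rose 4.78-fold at low counts, from 0.651 ± 0.381 to 3.11 ± 1.24 CPM.

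Bone matrix genes rose in 16 of 21 tested members, with none lower and a median of 0.75 (in vehicle 13 of 21 rose and none fell, median 0.68). The 4 other listed genes, among them Bglap, the gene of osteocalcin, did not pass the filter on low counts. Dmp1, a matrix protein of osteocytes and late osteoblasts, lay at 0.990, 0.978, 1.73, 0.598 and 1.02 CPM at 24 h and at 5.57, 7.77, 8.37, 8.60 and 11.4 CPM at 48 h, a 7.70-fold rise (log2 2.95 ± 0.26, adjusted p = 1.11e-06). These levels are low, and the 2 groups were well apart. Spp1, the gene of osteopontin, rose 5.51-fold, from 9.08 ± 3.28 to 50.3 ± 26.6 CPM, with 48 h replicate 1 lowest at 17.8 CPM and replicate 4 highest at 89.8 CPM. Col1a1, a chain of the fibril collagen of bone, rose 2.08-fold, from 2561 ± 219.8 to 5336 ± 879 CPM, and Sparc, the gene of osteonectin, 1.81-fold. Among the regulators of osteoblasts, Sp7 (osterix) rose 1.70-fold, to 24.4, 48.2, 41.7, 40.8 and 43.0 CPM from 24.9, 24.9, 23.4, 20 and 23.0 CPM. In that gene 48 h replicate 1 stayed within the range of 24 h while the other 4 were above it. Runx2, which acts before Sp7, rose 1.30-fold, with overlapping groups.

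**Figure D2:**
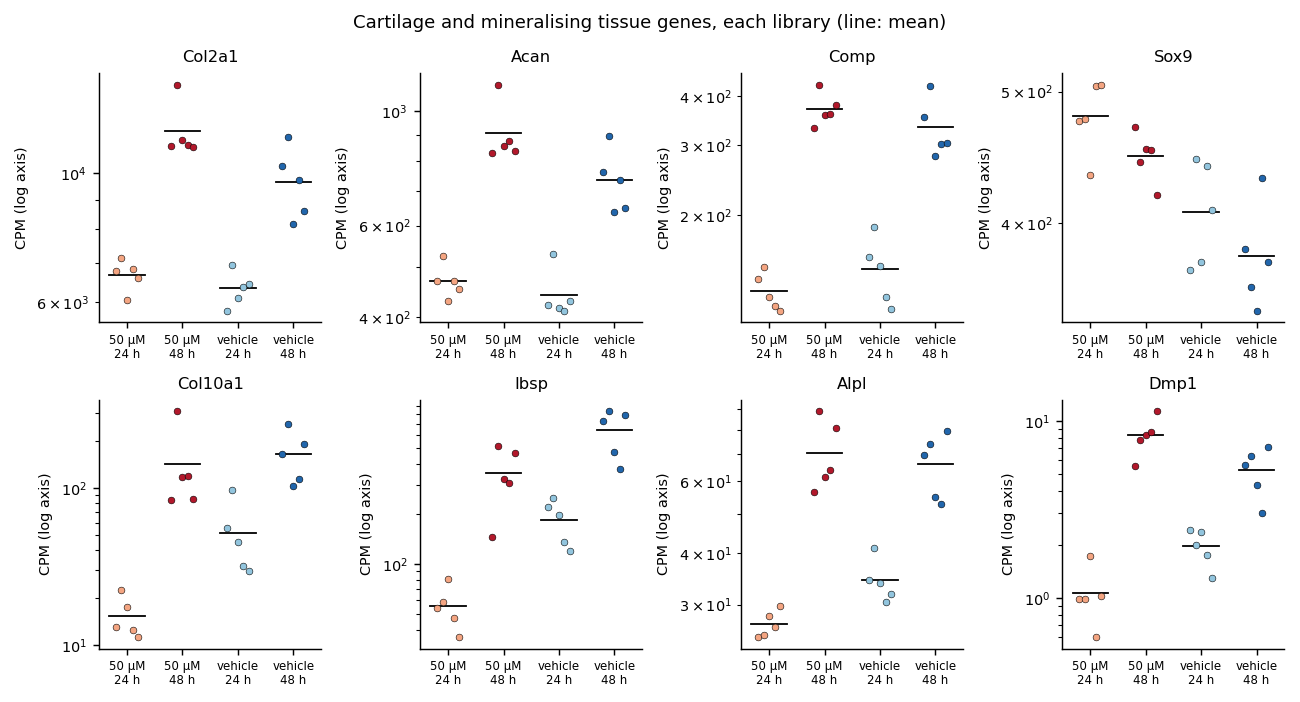
CPM of 8 cartilage and mineralising tissue genes in each library (points, log axis; the line is the mean of 5) with 50 µM BPA and with vehicle at 24 and 48 h. With 50 µM the libraries of 48 h lie above those of 24 h in every gene shown except Sox9, where they overlap, and 48 h replicate 2 is the highest point for Col10a1, at 309 CPM.

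Genes whose products process and cross-link collagen moved the same way. Of 26 tested, 17 rose and none fell, with a median of 0.38 (in vehicle 17 of 26 rose and none fell, median 0.28). Pcolce2, an enhancer of procollagen cleavage, rose 2.04-fold, from 34.9 ± 4.15 to 71.4 ± 6.29 CPM, and Loxl4, a lysyl oxidase that cross-links collagen, 3.30-fold, from 7.07 ± 1.63 to 23.5 ± 7.68 CPM. Fkbp10 and Crtap, which fold and hydroxylate procollagen in the endoplasmic reticulum, rose 1.38-fold and 1.40-fold. In the tendon and fibrous tissue list 19 of 25 rose and none fell, with a median of 0.59 (in vehicle 20 rose and 1 fell, median 0.55). Bgn, the proteoglycan biglycan, was at 334, 339.8, 339.6, 342 and 345 CPM at 24 h and at 846, 981, 638, 713 and 816 CPM at 48 h, a 2.34-fold rise. Its 24 h libraries were nearly level and all 48 h libraries stood above them. Collagen VI genes Col6a1, Col6a2 and Col6a3, whose products form the mesh around cells, rose 1.57-fold, 1.55-fold and 1.51-fold. Among matrix proteases and their inhibitors 9 of 26 rose and 2 fell. Timp1, an inhibitor of metalloproteases, rose 4.80-fold, from 5.92 ± 1.94 to 28.5 ± 9.81 CPM, and Mmp2 and Mmp14, which act together on matrix, 1.31-fold and 1.25-fold. The 2 that fell were Mmp11, at -0.44 ± 0.07, and Adamts9, at -0.23 ± 0.06 on the log2 scale, and without 48 h replicate 2 only 1 of these falls was called.

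Many limb patterning genes fell, and some joint genes were called. In the joint interzone list 1 of 14 rose and 3 fell, a share of falls above the 4.27% over all genes. Gdf5, the growth factor that marks forming joints, fell by 0.39 ± 0.09 on the log2 scale, from 80.3 ± 9.22 to 61.4 ± 7.26 CPM, and Cd44, the receptor of hyaluronan, rose 2.02-fold. Erg and Osr1, transcription factors of joint and connective tissue, had log2 fold changes of -0.26 ± 0.07 and -0.22 ± 0.07. Leaving out 24 h replicate 2, or 48 h replicate 5, kept 1 of these 3 calls. Of 37 limb patterning genes listed, the markers of limb bud identity, 36 had counts enough to be tested, none rose and 19 fell, with a median of -0.37. Msx1, a homeobox gene of undifferentiated limb mesenchyme, was at 70.5, 60.2, 61.3, 61.8 and 64.5 CPM at 24 h and at 46.3, 42.0, 36.4, 39.9 and 45.8 CPM at 48 h, a log2 fold change of -0.60 ± 0.08 (adjusted p = 4.15e-05). The groups did not overlap, and at 3 h with 50 µM the mean had been 162 CPM. The 5' Hoxd genes that pattern the autopod fell too: Hoxd11 by 0.61 ± 0.08, Hoxd12 by 0.70 ± 0.09 and Hoxd13 by 0.42 ± 0.10. Lmx1b, which gives the dorsal side its identity, fell by 0.67 ± 0.09, Tbx18 by 0.54 ± 0.08 and Shox2, which shapes the proximal limb, by 0.41 ± 0.06. Each fall was under 2-fold. In vehicle 18 of 36 patterning genes fell between the same hours and none rose, with a median of -0.31.

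Signalling families changed in single members more than as wholes. In the hedgehog and PTHrP list 2 of 17 members rose and 3 fell. Gli2 and Gli3, the transcription factors at the end of the hedgehog pathway, had log2 fold changes of -0.36 ± 0.05 and -0.49 ± 0.08, from 149.7 ± 4.72 to 117 ± 5.32 CPM and from 239 ± 20.5 to 171 ± 18.2 CPM. Boc, a hedgehog co-receptor, rose 1.19-fold. Pth1r, the receptor of PTHrP, and Sufu, an inhibitor of Gli proteins, were called at adjusted p = 0.0388 and 0.0492, and each lost the call when any 1 of 8 libraries was left out. In the BMP and TGF-beta list 9 of 37 rose and 2 fell. Tgfb1, a ligand, rose 2.16-fold, from 25.1 ± 2.78 to 54.6 ± 9.08 CPM, Ltbp2, a matrix protein of the latent TGF-beta binding family, 2.5-fold, and Bmp6, a ligand made by hypertrophic chondrocytes, 1.74-fold. Ctgf, a matrix protein induced by TGF-beta and YAP, rose 2.00-fold, and Inhba, which encodes an activin subunit, 1.86-fold. Bmp7, a ligand, and Id3, a target of BMP signals, were the 2 that fell, at -0.29 ± 0.09 and -0.34 ± 0.09. Neither fall was called without 48 h replicate 2, and neither without 48 h replicate 5, and Bmp7 lost its call in 7 alternatives in all. In the WNT list 2 of 29 rose and 1 fell, a share called near the 11.4% over all genes. Wisp1, a target gene, rose 1.58-fold, and Lgr5, a receptor of R-spondins, 1.21-fold with a call that 9 alternatives ended. Wnt5a, a ligand of outgrowth, had a log2 fold change of -0.38 ± 0.08. Among FGF genes 5 of 23 rose and 1 fell: Il17rd, an inhibitor of FGF signals, at -0.32 ± 0.09, which was not called without 24 h replicate 2 or 4 or without 48 h replicate 1, 2 or 5. Fgfr3, the receptor that restrains chondrocyte division, was at 384, 374, 359.7, 336 and 316 CPM at 24 h and at 397, 406, 446, 464 and 429.7 CPM at 48 h, a 1.21-fold rise in which the lowest 48 h library was just above the highest 24 h library. Spry4, a feedback inhibitor of FGF signals, rose 1.38-fold and Fgf2 1.25-fold.

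Of 19 retinoic acid genes tested, 8 fell and 2 rose, with a median of -0.28. Stra6, the receptor that takes up retinol, fell from 16.1, 16.3, 22.3, 14.5 and 13.1 CPM to 8.69, 6.81, 7.21, 4.76 and 5.22 CPM, a log2 fold change of -1.34 ± 0.17 (adjusted p = 5.39e-05). Its groups were apart, with 24 h replicate 3 highest. Enzymes that make retinoic acid were lower as well: Aldh1a2, which performs the last step, at -0.99 ± 0.19, from 27.2 ± 8.89 to 13.8 ± 2.89 CPM, and Rdh10, which performs the step before it, at -0.49 ± 0.08. Rbp4, the secreted carrier of retinol, rose 1.87-fold and Tgm2, a transglutaminase induced by retinoic acid, 1.56-fold. In vehicle, by the fit of 20 libraries, 3 of 19 members fell and 4 rose between the same hours, with a median of -0.03. No member was called in the difference from vehicle.

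Targets of p53, the transcription factor of the DNA damage response, rose in 24 of 32 tested members, with 2 lower and a median of 0.80. Eda2r, a death receptor, was at 5.33, 6.41, 6.41, 6.90 and 6.61 CPM at 24 h and at 23.3, 27.3, 29.1, 27.3 and 42.1 CPM at 48 h, a 4.68-fold rise (log2 2.23 ± 0.15, adjusted p = 5.65e-08). Replicate 5 of 48 h was the highest and the groups were far apart. Cdkn1a, the inhibitor of cyclin-dependent kinases known as p21, rose 2.57-fold, from 97.9, 88.5, 87.3, 88.7 and 86.4 CPM to 184, 252, 197, 223 and 303 CPM. Ccng1, a cyclin induced by p53, rose 2.63-fold, Phlda3, an inhibitor of AKT, 2.53-fold, and Zmat3, an RNA-binding protein, 1.97-fold. The pair that fell, Plk2 at -0.21 ± 0.06 and Xpc at -0.28 ± 0.07, were not called without 24 h replicate 2 or without 48 h replicate 4, and Plk2 lost its call in 8 alternatives in all. In vehicle 23 of 32 rose between the same hours, with a median of 0.75.

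The integrated stress response is the programme in which stress slows translation in general while the transcription factor ATF4 is made, and ATF4 with C/EBP partners then switches on genes of amino acid supply and protein folding. Of 40 genes of this programme, 24 rose and none fell, with a median of 0.34. Nupr1, a small stress-induced nuclear protein, rose 2.34-fold, from 9.07, 9.34, 9.64, 10.5 and 11.2 CPM to 17.8, 28.7, 19.9, 22.6 and 27.7 CPM. Chac1, which breaks down glutathione, rose 1.77-fold, from 25.6, 19.7, 13.8, 22.2 and 22.6 CPM to 30.9, 37.8, 33.9, 45.5 and 36.1 CPM. In both genes the groups did not overlap. Sesn2, an inhibitor of growth signalling, rose 1.75-fold, Atf5, a transcription factor, 1.71-fold, and Ddit3, the factor CHOP, 1.36-fold. Atf4 itself rose 1.24-fold, a call lost without 24 h replicate 2 or without 48 h replicate 2, 4 or 5 (adjusted p between 0.0503 and 0.0738). Asns, the asparagine synthetase, rose 1.18-fold from 109 ± 10.9 to 129 ± 7.54 CPM (adjusted p = 0.0317), a call that was lost with the vehicle libraries in the fit (adjusted p = 0.112) and without any 1 of 5 libraries. Fgf21, a secreted factor induced by ATF4, rose 2.62-fold at low counts, from 2.26 ± 1.01 to 5.97 ± 1.79 CPM, Herpud1, which serves degradation of misfolded proteins, 1.35-fold, and Gars, the glycyl-tRNA synthetase, 1.28-fold. In vehicle, by the fit of 20 libraries, 11 of the 40 rose and none fell, with a median of 0.21. Vehicle means of Chac1 were 9.56 CPM at 24 h and 16.4 CPM at 48 h.

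Promoter sequences of 6 of these genes show the composite site that C/EBP and ATF factors are known to bind, called CARE. The letters searched were TGATGNAA and, for the other strand, TTNCATCA, in windows from 250 bases before to 50 after each gene's start, taken from RefSeq on build GRCm38.p6. Of 33 genes of the list with a window, 13 (39.4%) held a match, as did 10 of the 20 that rose, against 1219 of 27025 genes (4.51%) in all. The list was made of genes known for this programme, so a share above that of all genes can follow from its choice. Of all 1328 CARE matches, 1 overlapped a sterol response element (letters TCACNCCAC) and 0 the ER stress element spelled out below. The letters of an AP-1 site, TGANTCA, cannot overlap those of CARE, so their count of 0 was fixed by the spelling. The stretches below run 5′ to 3′ along the gene's own strand, all before the start, with the match in capitals.
Nupr1, chr7:126625543-126625610, minus strand: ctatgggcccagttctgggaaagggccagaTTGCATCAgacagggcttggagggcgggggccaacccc
Chac1, chr2:119351019-119351086, plus strand: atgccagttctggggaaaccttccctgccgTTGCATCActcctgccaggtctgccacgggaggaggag
Fgf21, chr7:45615592-45615659, minus strand: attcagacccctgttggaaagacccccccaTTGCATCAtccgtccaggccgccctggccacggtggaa
Herpud1, chr8:94386287-94386354, plus strand: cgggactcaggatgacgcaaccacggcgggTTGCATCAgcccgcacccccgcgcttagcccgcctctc
Gars, chr6:55037941-55038000, plus strand: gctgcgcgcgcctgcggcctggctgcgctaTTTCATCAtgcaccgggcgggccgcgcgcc
Asns, chr6:7693210-7693262, minus strand: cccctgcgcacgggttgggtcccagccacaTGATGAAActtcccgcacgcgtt
The match begins 110 bases before the start in Nupr1, 193 in Chac1, 139 in Fgf21, 112 in Herpud1, 30 in Gars and 23 in Asns. Nupr1, Chac1, Fgf21 and Herpud1 share the letters TTGCATCA, Gars has TTTCATCA and Asns the sequence on the opposite strand. A match is a run of letters and does not show that a factor was bound.

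Chaperones of the endoplasmic reticulum, which answer to another arm of the stress response, mostly did not pass the test. Of 26, 2 rose and 1 fell, with a median of 0.07. The share called was near the 11.4% over all genes. Hspa5, the main chaperone of that compartment, stood at 1088, 1089, 1052, 1160 and 1200 CPM at 24 h and at 1089, 1194, 1042, 1084 and 1147 CPM at 48 h, a log2 difference of -0.01 ± 0.06 (adjusted p = 0.919). Its promoter holds the ER stress element, searched as CCAAT and CCACG with any 9 bases between them, on both strands, beginning 65 bases before the start.
Hspa5, chr2:34771995-34772073, plus strand: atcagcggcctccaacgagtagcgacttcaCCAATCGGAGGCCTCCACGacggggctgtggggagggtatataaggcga
The element was found in 9 of 21 chaperone genes with a window (42.9%) and in 37 of 27025 genes (0.137%). This list too was made of genes known for the response, which can raise its share. P4hb, a disulfide isomerase that also serves collagen folding, rose 1.19-fold, the stress gene Herpud1, which stands in both lists, is the other that rose, and Derl3, a channel for degradation, had a log2 fold change of -0.59 ± 0.14. Without 48 h replicate 2 P4hb was not called, and with the vehicle libraries in the fit Derl3 was not (adjusted p = 0.0638). Of 22 heat shock genes, 1 rose (Hspa9, a chaperone of mitochondria, 1.16-fold, a call lost without any 1 of 5 libraries) and none fell.

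Immediate early genes, which respond within minutes to growth factors, load or handling, rose in 19 of 30 members, with none lower and a median of 0.74. Egr1, a zinc finger factor, was at 101, 92.2, 55.9, 82.6 and 86.7 CPM at 24 h and at 132, 405, 164, 204 and 246 CPM at 48 h, a 2.74-fold rise (log2 1.46 ± 0.23, adjusted p = 3.00e-04). Replicate 2 of 48 h was the highest library. Arc and Egr3 rose 7.75-fold and 6.63-fold from low counts, and Fos, a subunit of AP-1, 2.76-fold with overlapping groups, from 9.05 ± 4.03 to 25.0 ± 16.4 CPM. Klf2 and Klf4, factors of the Krüppel family, rose 1.98-fold and 1.53-fold. In the inflammatory list 9 of 23 rose and none fell (in vehicle 9 of 24 rose and none fell). Ptgs2, the cyclooxygenase of prostaglandin synthesis, went from 1.92, 1.76, 1.68, 2.61 and 1.69 CPM to 7.05, 17.2, 5.84, 13.2 and 16.2 CPM, a 6.12-fold rise. All 48 h libraries were above all 24 h libraries, with 48 h replicates 1 and 3 nearest. Lif, a cytokine, rose 6.36-fold, Ccl2, a chemokine of monocytes, 6.97-fold from 0.668 ± 0.403 CPM, and Icam1, an adhesion molecule, 3.46-fold. Vehicle means of Ptgs2 were 1.53 and 9.17 CPM.

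**Figure D3:**
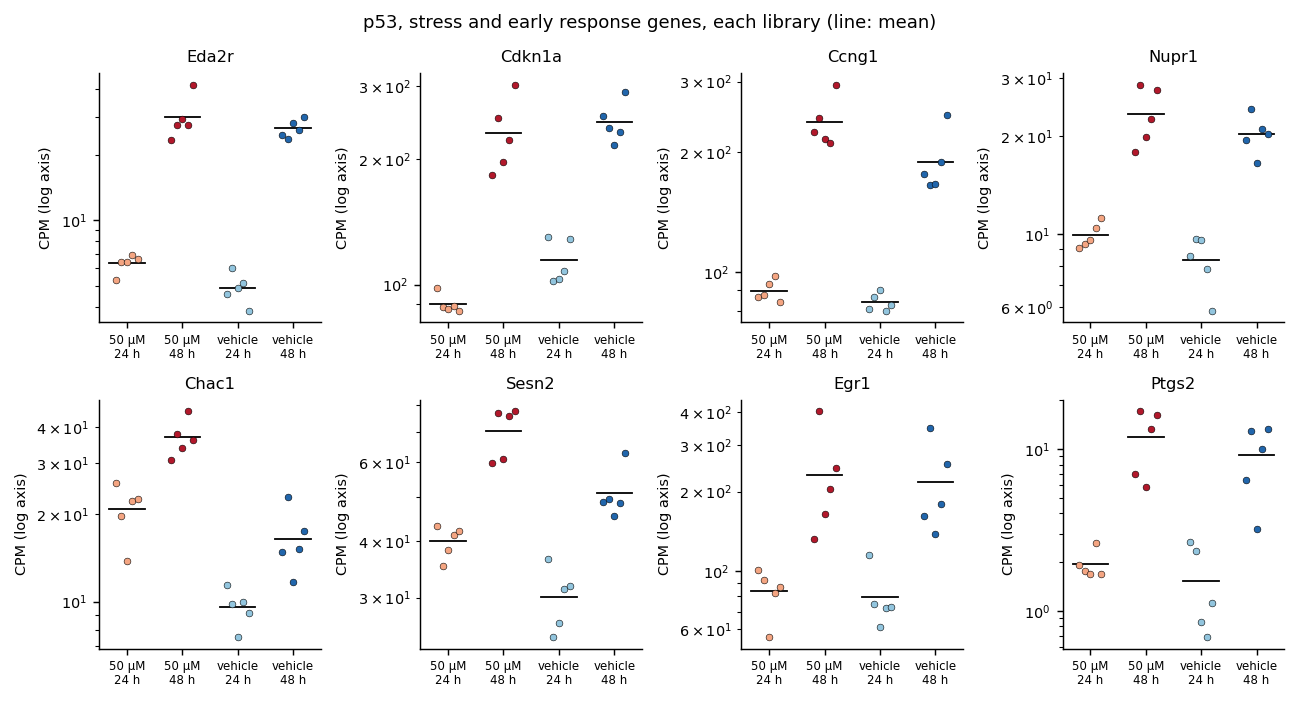
CPM of 8 genes of the p53, integrated stress and early responses in each library (points, log axis; the line is the mean of 5), with 50 µM BPA and with vehicle at 24 and 48 h. With 50 µM, all libraries of 48 h lie above all of 24 h in the 8 genes, and the vehicle libraries of Chac1 have lower means, 9.56 and 16.4 CPM, than those with 50 µM, 20.8 and 36.9 CPM.

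Lysosomal genes rose in 20 of 33 members, none fell, and the median was 0.39 (in vehicle 14 of 33 rose and none fell, median 0.23). Gpnmb, a glycoprotein of lysosome-rich macrophages and bone cells, rose 3.47-fold, from 39.8 ± 6.82 to 138 ± 24.3 CPM. The proteases Ctsd, Ctsl and Ctsb rose 1.66-fold, 1.45-fold and 1.45-fold, and Psap, the precursor of saposins, 1.34-fold. Genes of the oxidative stress factor NRF2 rose in 6 of 22 members, with Hmox1, which breaks down heme, at 1.48-fold, from 61.9 ± 3.67 to 91.9 ± 11.7 CPM. Hypoxia genes rose in 7 of 35, a count that was 4 without 24 h replicate 2 or 3, 2 without 24 h replicate 5 and 3 without 48 h replicate 2. Bhlhe40, a repressor with a place in the circadian clock, rose 1.99-fold, and P4ha1, a prolyl hydroxylase of collagen, 1.46-fold. Cholesterol genes fell in 4 of 29 members and none rose. Mvd, a synthetic enzyme, had a log2 fold change of -0.45 ± 0.09, and Acat2 and Hmgcs1, at the start of the pathway, had -0.34 ± 0.08 and -0.20 ± 0.06. Hmgcs1 lost its call without any 1 of 8 libraries and with no filter on low counts. The count of 4 was 7 with the vehicle libraries in the fit, in which 14 of the 29 fell in vehicle and none rose, and 7 as well by DESeq2, with upper-quartile factors and with the Y-linked covariate. Of genes for the respiratory chain, none of 44 nuclear members and none of 15 mitochondrial members was called. Esr1, the classical estrogen receptor, was near 1 CPM at both times (1.05 ± 0.214 and 1.03 ± 0.347). Esrra, an orphan relative, rose 1.35-fold, a call lost without any 1 of 4 libraries.

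Genes of mitosis had small positive fold changes. In the G2/M and mitosis list 10 of 30 rose, none fell and all 30 had a positive log2 fold change, with a median of 0.21. Top2a, the topoisomerase of replicating chromosomes, was at 159.7, 161, 182, 172 and 168 CPM at 24 h and at 192, 225, 226, 203 and 198 CPM at 48 h, a 1.23-fold rise (adjusted p = 0.00376). The groups did not overlap, and both lay below the 3 h mean of 463 CPM. Kif23, a kinesin of cytokinesis, rose 1.37-fold and Nusap1, which bundles spindle microtubules, 1.34-fold. The count of 10 was 5 without 48 h replicate 2 and 6 without 24 h replicate 2. Mki67, the marker of cycling cells, rose 1.26-fold (adjusted p = 0.0187) and was not called without either of these libraries (adjusted p = 0.0552 and 0.0572). Of 35 DNA replication genes 3 rose, a share near that over all genes, and none fell, with Rrm2, which makes deoxynucleotides, at 1.28-fold. That count was 1 without 48 h replicate 2 and 6 without 48 h replicate 1. In vehicle, by the fit of 20 libraries, 1 of the 30 mitosis genes rose and none fell, with a median of 0.10, and 3 of 35 replication genes rose. Whether the gap in mitosis counts comes from the fit was not tested. No member of either list was called in the difference from vehicle.

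Markers of other cells of the limb bud differed in how they went. In bulk RNA fewer cells of a type and less RNA per cell cannot be told apart. Muscle contractile genes rose in 1 of 32 members (Tnnt3, a fast troponin, 1.49-fold) and none fell, with a median of -0.04. Without 48 h replicate 1 the count of rises was 5, and with the vehicle libraries in the fit or by DESeq2 it was 2. Their summed level was 3610, 3894, 4479, 4706 and 4310 CPM at 24 h and 2964, 4003, 4441, 4314 and 4797 CPM at 48 h with 50 µM. In vehicle it was 4680, 6415, 7635, 7757 and 8632 CPM at 24 h and 7370, 6961, 9356, 9835 and 10601 CPM at 48 h, and in the fit with vehicle 12 of 33 members rose there with a median of 0.39. Among muscle regulators 1 of 21 rose and 4 fell with 50 µM. Pax7, the factor of muscle stem cells, fell from 11.5, 11, 13.3, 21.0 and 13.2 CPM to 6.85, 6.06, 8.0, 10.5 and 7.86 CPM, a log2 fold change of -0.84 ± 0.18. Myf5 and Lbx1, factors of early myoblasts, had log2 fold changes of -0.84 ± 0.23 and -0.85 ± 0.23. Neither was called without 24 h replicate 4, and each lost its call without any 1 of 3 libraries. Myog, the factor of differentiating muscle, was at 173 ± 14.7 and 161 ± 34.5 CPM (adjusted p = 0.644).

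Most erythroid markers fell, some endothelial markers were called, and some macrophage markers rose. Erythroid genes fell in 8 of 12 members and 1 rose, with a median of -1.24 (in vehicle 9 of 15 fell and 1 rose, median -1.23). Slc4a1, the anion exchanger of the red cell membrane, went from 6.05, 7.09, 4.77, 6.90 and 6.30 CPM to 0.869, 0.353, 1.24, 0.607 and 0.316 CPM, a log2 fold change of -3.16 ± 0.30 (adjusted p = 3.15e-06), the largest fall among the genes named by size. Every 48 h library was below every 24 h library. The globin genes Hba-a1 and Hbb-y, of the alpha and embryonic beta type, fell by 1.32 ± 0.11 and 1.17 ± 0.11. How reads shared by near-identical globin copies were counted is not given. Tfrc, the transferrin receptor, which dividing cells of many types also make, rose 1.45-fold. Endothelial genes rose in 1 and fell in 3 of 23 members, a share of falls above the 4.27% over all genes. Aplnr, the apelin receptor of veins and sprouts, had a log2 fold change of -1.52 ± 0.27, from 5.38 ± 1.19 to 1.89 ± 0.902 CPM, Tek, the angiopoietin receptor, -0.78 ± 0.15, and the ligand Apln rose 1.84-fold. Macrophage genes rose in 6 of 23 members and none fell, with a median of 0.33 (in vehicle 6 of 23 rose and none fell, median 0.43). Lyz2, their lysozyme, was at 32.1, 30.2, 38.7, 37.3 and 40.3 CPM at 24 h and at 42.5, 69.2, 55.6, 53.7 and 82.9 CPM at 48 h, a 1.69-fold rise, and Cd68, a lysosomal marker of macrophages, rose 1.8-fold. The summed macrophage level ran from 229 to 252 CPM at 24 h and from 224 to 395 CPM at 48 h, so the groups overlapped.

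Epidermal transcripts varied between libraries of the same group. Their summed level ranged from 366 to 1144 CPM at 24 h and from 318 to 1041 CPM at 48 h, and 1 of 24 members rose while 3 fell. Krt14, the keratin of basal epidermis, went from 201, 146, 159, 120.4 and 81.0 CPM to 119, 77.6, 72.6, 36.9 and 37.9 CPM, a log2 fold change of -1.05 ± 0.26, and Krt10, the keratin of the layers above, rose 3.30-fold, from 34.6 ± 32.5 to 115 ± 56.2 CPM. Both groups overlapped in both genes. With the vehicle libraries in the fit neither was called (adjusted p = 0.408 and 0.163). Without 24 h replicate 3 the rise of Krt10 was 5.7-fold. With the epidermal level as a covariate the whole comparison called 1958 genes. Among neural and Schwann cell genes 3 of 18 rose and 3 fell, with Erbb3, the neuregulin receptor of Schwann cells, at -0.46 ± 0.07 and S100b, a calcium-binding protein of glia and cartilage, 1.99-fold higher. Of pericyte and smooth muscle genes 1 of 14 rose and 2 fell, with Cspg4, the proteoglycan NG2 that chondrocytes also make, 1.51-fold higher and Notch3, a receptor of mural cells, at -0.29 ± 0.07. The mix of sexes differed between libraries. Ddx3y, on the Y chromosome, was at 21.6, 29.9, 84.6, 70.8 and 76.6 CPM at 24 h and at 59.2, 25.5, 61.8, 69.1 and 99.3 CPM at 48 h, lowest in 24 h replicates 1 and 2 and 48 h replicate 2. With the level of Y-linked genes as a covariate 2102 genes were called.

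**Figure D4:**
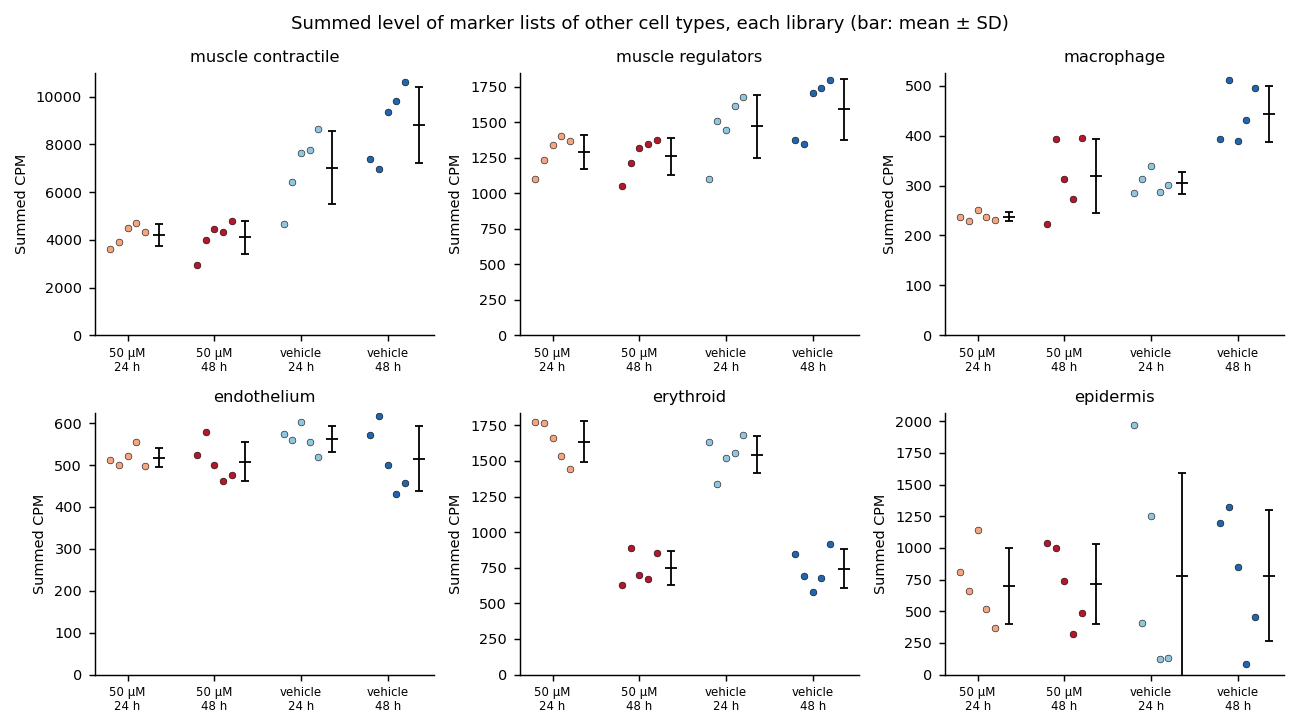
Summed CPM of the members of 6 marker lists in each library (points; bars give mean ± SD of 5), with 50 µM BPA and with vehicle at 24 and 48 h. Muscle contractile genes lie between 2964 and 4797 CPM in all 10 libraries with 50 µM and between 4680 and 10601 CPM with vehicle, erythroid genes are lower at 48 h than at 24 h in both, and epidermal genes range widely inside each group.

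The question whether these hours went otherwise with 50 µM than without BPA was put to the difference between the 2 time changes, in 1 fit of 20 libraries. None of 17852 genes was called (0%) by edgeR without a replicate block, with 585 (3.28%) at an unadjusted p under 0.05. DESeq2, given 28310 genes with no filter on low counts, called 0 with 848 (3.00%) at that level. Both shares lie below the 0.05 that such a threshold passes when no gene differs. With the replicate number as a block edgeR called 7 genes, which are named at the end. The labels do not say that these numbers are a pairing. The median SE of the difference was 0.17 on the log2 scale. In counts simulated on these libraries the test found 57% of 1.5-fold and 80% of 2-fold differences. The changed genes had an average log2 CPM above 2, and counts were drawn independently for each library. Many genes were changed at once, which makes the adjusted threshold easier to pass than for a lone changed gene. These shares therefore do not cover genes of lower counts, scatter shared between libraries or a difference confined to a few genes. The smallest p belonged to Sptb, the beta chain of spectrin, which was at 6.79 ± 0.423 and 4.76 ± 0.318 CPM with 50 µM and at 8.24 and 9.87 CPM (means) with vehicle, a difference of -0.78 ± 0.15 (adjusted p = 0.541). Next came Tubb5, a tubulin of dividing cells and neurons, at 0.37 ± 0.08, and Myh7b, a slow myosin heavy chain, at -1.24 ± 0.29, both with adjusted p = 0.999. Tubulins are near-identical, and how reads shared by several copies were counted is not given.

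Among skeletal genes some differences had intervals above 0 without passing the correction. For Col10a1 the vehicle mean was 51.8 CPM at 24 h and 165 CPM at 48 h, against 15.2 and 142 CPM with 50 µM. The difference of the log2 changes was 1.53 ± 0.49, with a 95% interval from 0.56 to 2.49 (adjusted p = 0.999, edgeR's quasi-likelihood test). Dmp1 differed by 1.5 ± 0.37, with an interval from 0.78 to 2.23, its vehicle means being 1.96 and 5.31 CPM and those with 50 µM 1.06 and 8.34 CPM. For Ibsp the difference was 0.85 ± 0.39 (0.08 to 1.61), for Spp1 1.00 ± 0.46 (0.10 to 1.91) and for Alpl 0.42 ± 0.17 (0.09 to 0.76). Col2a1 and Acan, at 0.20 ± 0.12 and 0.20 ± 0.13, and Col1a1, at -0.16 ± 0.13 (-0.41 to 0.10), had smaller ones. In the hypertrophic list the difference was above 0 in 19 of 22 members and its median was 0.19, in cartilage matrix in 13 of 24 with a median of 0.02, beside -0.01 over all genes tested. In the muscle contractile list 31 of 33 members had a difference below 0, with a median of -0.44, and among the regulators 21 of 23, with a median of -0.24. Myf5 differed by -1.04 ± 0.30 (-1.63 to -0.45), Acta1, skeletal actin, by -0.34 ± 0.19 (-0.73 to 0.04), and Myh3, the embryonic myosin, by -0.58 ± 0.22 (-1.01 to -0.15), all with adjusted p = 0.999 without a replicate block. With the block Myh3 was called, at -0.62 ± 0.11 (adjusted p = 0.0385, the same test), and Myf5 and Acta1 were not. Members of a list share libraries and cells and are not replicates, so these counts describe the list and test nothing. A difference that misses the threshold does not show that the time changes were alike.

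**Figure D5:**
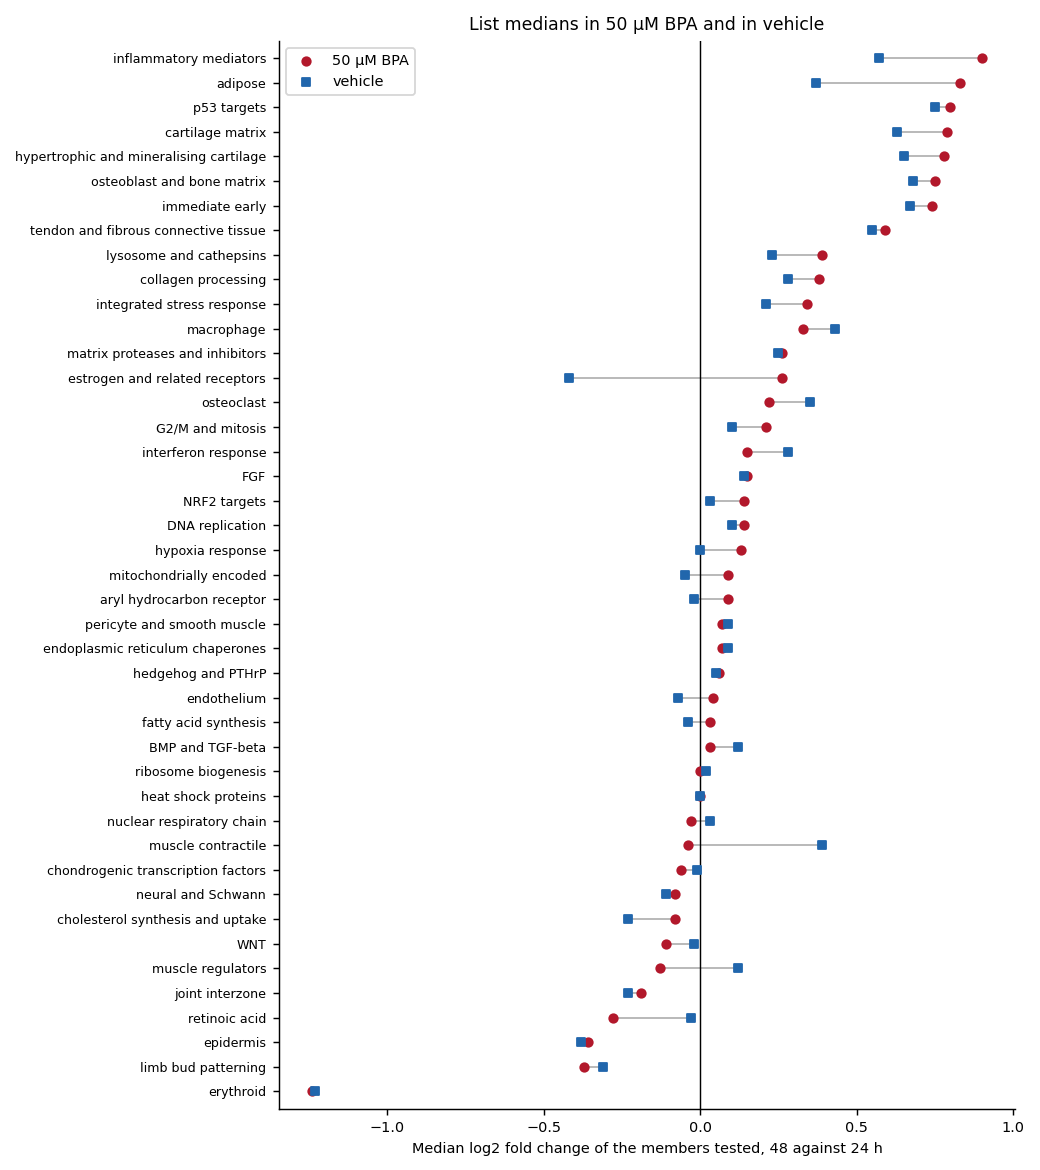
Median log2 fold change from 24 to 48 h over the tested members of each gene list, with 50 µM BPA (circles) and with vehicle (squares). Cartilage matrix is at 0.79 and 0.63, and muscle contractile genes are at -0.04 with 50 µM and at 0.39 with vehicle. No list member was called in the test of the difference without a replicate block.

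Other members whose difference had a small unadjusted p are given by value alone. Intervals here and above are not corrected for the number of genes tested, so one that leaves out 0 does not show a difference. Slc4a1 differed by -1.45 ± 0.46, with vehicle means of 5.25 and 1.58 CPM beside 6.22 and 0.678 CPM with 50 µM. Rgs5, a marker of pericytes, was at 10.3 ± 1.31 and 6.62 ± 0.994 CPM with 50 µM and at 9.92 and 12.2 CPM with vehicle, a difference of -0.94 ± 0.22 (-1.37 to -0.51). Aldh1a2 differed by -0.77 ± 0.28 and Ihh by 0.38 ± 0.15, with Ihh means of 43.1 and 39.9 CPM in vehicle. For Apln the difference was 0.64 ± 0.22 and for Cd68 0.50 ± 0.16. With 10 µM BPA the means of Col10a1 were 65.1 and 165 CPM at 24 and 48 h.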

How the data were processed

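Poly(A) RNA of cultured mouse forelimb buds was sequenced in 45 libraries, and 40 were read here from 5 of the deposited tables. The authors deposited, per the file headers, a raw read count per gene and library, a count divided by a size factor (unit signal), FPKM, and the log2 fold change and p-value of their own comparisons. The counts alone entered the tests; the signal, FPKM, log2 and p-value columns of the authors were not used. The submitters' processing notes name CASAVA 1.8, STAR 2.5, HTSeq 0.6.1, DESeq2 2 and build mm10 without roles. No source used here gives the strand setting of the counting, so overlapping and antisense genes cannot be told apart, and reads have no molecular identifiers.

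Counts of 24 and 48 h were joined by Ensembl identifier, 28310 genes being in both tables. Libraries were grouped by title. For the 50 µM libraries of 3 h another label says 24 h, the treatment text of every sample names 3 h, and the codes of 10 µM 48 h replicates 1 and 2 are exchanged; titles were followed. Genes passed edgeR's filter (minimum count 10, total 15), counts were scaled by TMM, and the quasi-likelihood test of edgeR 4.0.16 in R 4.3.3 was fitted to the 10 libraries, and for the difference from vehicle to 20, with Benjamini-Hochberg adjustment at 0.05. SE was derived from the F statistic, and intervals are 1.96 SE (95%). CPM are on 1 TMM scale over the 40 libraries. DESeq2 1.42.0 and other scalings, filters, a replicate block, vehicle libraries in the fit, single libraries left out and, added after seeing the data, epidermal and Y-linked covariates were the alternatives. On simulated counts the time test recovered 79% of 1.5-fold and 98% of 2-fold changes, placed in many genes at once with an average log2 CPM above 2.

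The members and lists were chosen with earlier results of these data known. Named were up to 15 protein-coding genes of largest rise and of largest fall (called, mean count at least 50, groups apart), up to 6 called members of smallest p per list, a fixed set, and the 15 genes of smallest p in the difference. Plk2, Xpc, Adamts9, Bmp7, Id3, Tfrc, Atf4, Mybpc1, Ablim3, Myh3, Srl, Synpo2l and Hfe2 were added after their values were seen. Promoter windows are RefSeq's on GRCm38.p6. Figures were drawn with matplotlib 3.10.9.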

Additional observations from a re-analysis of the deposited data

Results flagged for a closer look

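Among 280 groups of 5 values of the named genes, 25 (8.93%) held a library standing apart from the other 4 by Dixon's criterion, which chance alone meets in about 1 group in 20. Genes share libraries, so these are not 25 separate events. Of the 25, 9 were 48 h replicate 2 and 6 were 24 h replicate 1.

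In 48 h replicate 2 the highest values were 1124 CPM for Acan, 309 CPM for Col10a1, 14190 CPM for Col2a1, 735 CPM for Col6a1, 200.3 CPM for Ctgf, 65.2 CPM for Nusap1, 287 CPM for P4ha1 and 1372 CPM for P4hb, and the lowest was 139 CPM for Gli3. In 24 h replicate 1 the highest were 3.63 CPM for Arc, 97.9 CPM for Cdkn1a, 172 CPM for Pth1r and 27.6 CPM for Tgm2, and the lowest were 53.6 CPM for Fgf2 and 204 CPM for Gli3. In 24 h replicate 4 Apln (9.24 CPM), Pax7 (21.0 CPM) and Ptgs2 (2.61 CPM) were highest and Ltbp2 (21.4 CPM) lowest. Krt10 was highest in 24 h replicate 3, at 92.1 CPM, and Gpnmb in 24 h replicate 5, at 51.5 CPM. At 48 h Gars (212 CPM) and Pth1r (158 CPM) were lowest in replicate 3, Runx2 (52.5 CPM) was lowest in replicate 1, and Pcolce2 (82.6 CPM) was highest in replicate 5.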

How the results depend on the processing

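At an adjusted p under 0.01 in place of 0.05, 1031 genes were called between 24 and 48 h, 715 higher and 316 lower. Leaving out 1 library gave 1360 to 2230 calls, 889 to 1304 higher and 471 to 926 lower, the lowest without 48 h replicate 2 and the highest without 24 h replicate 1. With DESeq2 2356 genes were called, and with upper-quartile scaling 1941 (1135 higher, 806 lower). Of 135 called genes named, 23 lost the call in at least 1 alternative, 11 of them only when 1 library was left out, and 0 reversed. Uncalled genes changed sign: with 1 library left out Esr1 ran from -0.21 to 0.10, Hspa5 from -0.04 to 0.01 and Myog from -0.18 to 0.01. The causes were not tested.

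Replicate numbers were not taken as pairing: same-numbered 24 and 48 h libraries with 50 µM correlated at 0.12, 0.05, 0.15, 0.09 and 0.15, the own number being highest in 4 of 5. Between 50 µM and vehicle they correlated at 0.45, 0.05, 0.26, 0.27 and 0.28 at 24 h (own number highest in 4 of 5) and at 0.31, 0.35, 0.34, 0.33 and 0.24 at 48 h (5 of 5), a hint from the data, not the design. With the number as a replicate block 2205 genes were called in the time change. In the difference from vehicle the block called 7 genes, 1 higher (Tubb5, 0.37 ± 0.06) and 6 lower: Mybpc1 (-0.75 ± 0.11), Ablim3 (-0.65 ± 0.10), Myh3 (-0.62 ± 0.11), Srl (-0.58 ± 0.10), Synpo2l (-0.54 ± 0.10) and Hfe2 (-0.72 ± 0.13). Without the block 0 were called, with or without any 1 library.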
